A study of Mus musculus with 7 samples.

Results

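The proteases and inhibitors that remodel the extracellular matrix were examined in quadriceps muscle of mice with spinal and bulbar muscular atrophy (SBMA), before the onset of motor dysfunction. The genes were chosen by their names. They were all matrix metalloproteinase (Mmp), Adamts, Adamts-like (Adamtsl) and tissue inhibitor of metalloproteinases (Timp) genes on the array, which gave 51 genes and 72 of the 39429 probes. AR113Q mice (AR113Q-NCD in the design text) carry, by knock-in, an androgen receptor gene with an expanded CAG repeat, which encodes a polyglutamine tract, and the receptor is expressed from the endogenous locus in all tissues that normally use it. There were 3 arrays from AR113Q mice and 4 from WT mice, all from quadriceps of the C57BL/6 strain at 3 months, given as 90 days in the design text, with 1 mouse per array. The genotype of the controls is WT in the labels, while the text of the study describes a knock-in control line, and the values below use the labels. The knock-in allele is not limited to muscle fibers.

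Matrix metalloproteinases are zinc-dependent enzymes, secreted or anchored at the cell surface, that cut collagens, proteoglycans and other proteins outside the cell. They are made as inactive proenzymes and are kept in check by the TIMPs. The ADAMTS enzymes are secreted relatives with thrombospondin repeats. Some of them cut proteoglycans such as aggrecan and versican, and others remove the N-terminal propeptide of fibrillar procollagens. ADAMTS-like proteins share the thrombospondin repeats but lack the catalytic domain. In skeletal muscle these genes are known mainly from the connective tissue, vessels and satellite cells around the fibers, and from repair after injury.

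Each array measured the fluorescence of 1 dye at 60-base probes. Each array had 18785 to 22013 probes (47.6% to 55.8%) with a signal well above its background, the median intensity lay between 16.4 and 28.6, and 0 spots were saturated. A gene was tested if 3 or more of the 7 arrays had a probe of it well above background, and its values are quantile-normalized log2 signals of the brightest such probe. A gene was called different at an adjusted p of at most 0.05 from limma (Benjamini-Hochberg over all 16577 genes tested) together with a log2 fold change of 1 or more in either direction. The 9 muscle fiber markers, among them Ckm (muscle creatine kinase) and Acta1 (skeletal actin), were well above background on all 7 arrays. On the slide with both genotypes, the only one of 5, WT replicate 2 lay beside AR113Q replicate 1. With so few arrays, each value is only as precise as the spread given beside it.

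Of the 51 genes, 19 were well above background on all 7 arrays, 9 on 3 to 6 arrays, 3 on 1 or 2 arrays and 20 on 0 arrays. This left 28 genes to be tested. All 4 Timp genes and 4 of 5 Adamtsl genes were among them, and so were both gelatinases. Only 1 of the 4 collagenases, Mmp8, and 1 of the 9 ADAMTS genes outside the proteoglycan-cleaving and procollagen groups, Adamts10, passed. A probe below background is dim at its own position on the transcript, and says nothing about transcripts that it does not cover.

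**Figure D1:**
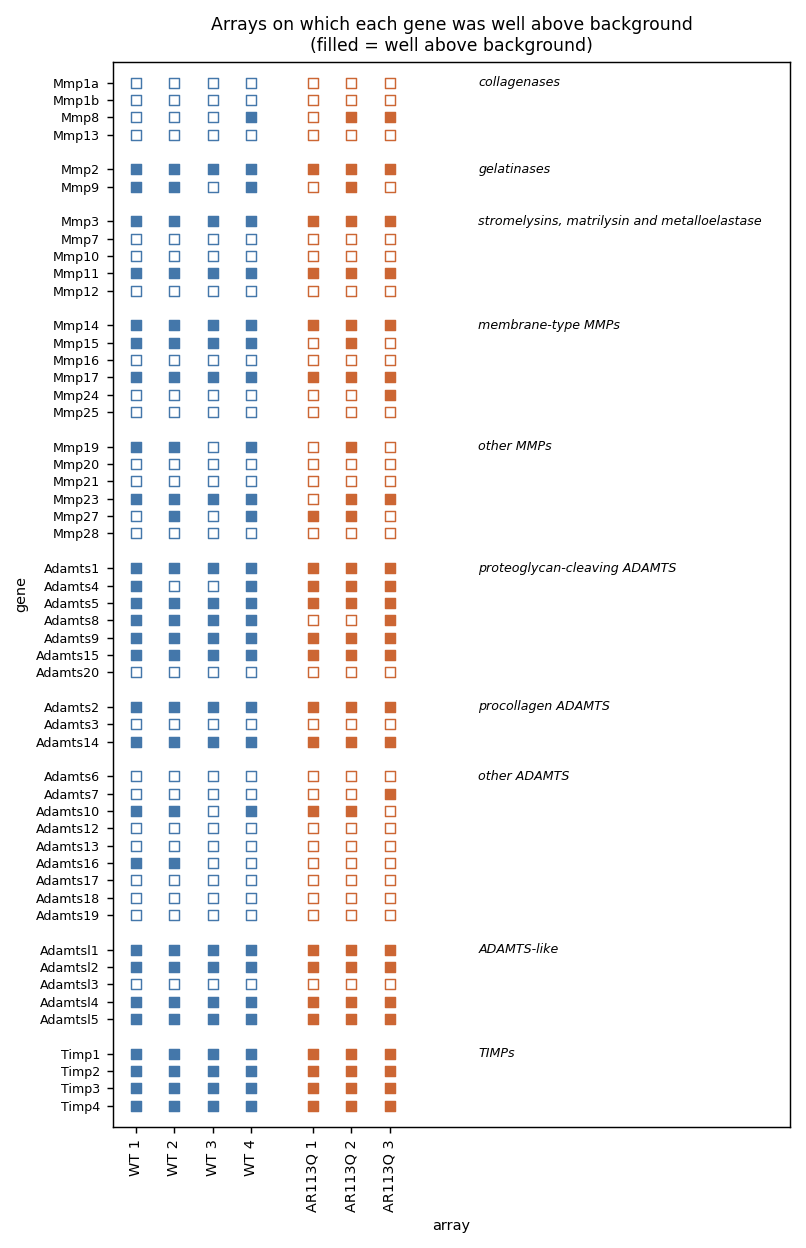
Arrays (x axis, 4 WT and 3 AR113Q) on which each of the 51 genes (y axis, grouped by role) was well above background, shown by filled squares. For genes tested, the squares stand for the probe used, and for the rest for the probe above background on the most arrays. The TIMP block is filled throughout, and 20 genes have no filled square.

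The genes at 0 arrays were Mmp1a, Mmp1b and Mmp13 (collagenases), Mmp7 (matrilysin), Mmp10 (stromelysin) and Mmp12 (macrophage metalloelastase), Mmp16 and Mmp25 (membrane-type), Mmp20 (the enamel protease enamelysin), Mmp21 and Mmp28, Adamts3, Adamts6, Adamts12, Adamts13 (which cuts von Willebrand factor), Adamts17, Adamts18, Adamts19, Adamts20 and Adamtsl3. Adamts7 and Mmp24 were well above background on 1 array each, AR113Q replicate 3. Adamts16 was above on 2 of 4 WT arrays and on 0 of 3 AR113Q arrays. Its log2 signal was 5.03, 4.19, 2.59 and 4.13 in WT replicates 1 to 4 and 3.33, 1.99 and 1.68 in AR113Q replicates 1 to 3. AR113Q replicate 1 lay above WT replicate 3, so the groups overlapped. No fold or test is given since Adamts16 did not pass the filter. Its other probe was above background on 0 arrays.

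On chromosome 9, 10 of the Mmp genes form a cluster, with probes between 7282762 and 7697700 on mm9, the build of the array annotation. In this stretch 7 of 10 genes were at 0 arrays (Mmp13, Mmp12, Mmp1b, Mmp1a, Mmp10, Mmp20 and Mmp7), Mmp8 and Mmp27 were above background on 3 and 4 arrays, and only Mmp3 (stromelysin-1) was above background on all 7. Of the 41 genes elsewhere, 13 were at 0 arrays, and the difference was not tested. RefSeq windows on GRCm38.p6, reaching from 250 bases before to 50 bases after the gene start, were found for 36 of the 51 genes, including all 10 of the cluster, and were read on both strands for 7 motifs. The letters TGANTCA, bound by AP-1 factors, were in 8 of the 10 cluster genes and in 0 of the 26 others with a window, while 7.8% of all 32851 windows held them. TATAAA, the letters of the TATA box, was in 9 of the 10 and 3 of the 26, against 13.6% of all windows. In Mmp8 the match lay on the opposite strand, and in Mmp12 it lay 5 bases after an annotated start. GGGCGG, the GC box bound by Sp1, was in 0 of the 10 and 22 of the 26, against 35.7%. A window for the same 26 genes held AGAACA, a half-site of the androgen receptor, in 2 cases (Mmp11 and Mmp23), and the cluster in 3 (Mmp12, Mmp10 and Mmp7), against 19.0% of all windows. TGACGTCA (CRE, 1.8% of all windows) was in 0 of the 36 genes, GGGNNTTCC (NF-kB, 5.8%) in 1 and CACGTG (E-box, 7.2%) in 2. A match is only a run of letters, and the genes of this cluster are known to be related by duplication.

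To show how close the AP-1 letters and the TATA box lie in the cluster, the 110 bases before the start are given 5′ to 3′ for 5 cluster genes, of which only Mmp3 was measured above background, and for Mmp14 and Mmp15, called in opposite directions in AR113Q. Capitals mark the AP-1 letters, the TATA box and the GC box.
Mmp3, chr9:7445712-7445821 (plus strand): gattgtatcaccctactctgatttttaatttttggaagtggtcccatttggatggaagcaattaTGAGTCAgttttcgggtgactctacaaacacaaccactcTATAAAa
Mmp10, chr9:7502232-7502341 (plus strand): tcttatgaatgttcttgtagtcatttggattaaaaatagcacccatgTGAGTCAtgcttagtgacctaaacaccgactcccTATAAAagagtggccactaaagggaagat
Mmp13, chr9:7272404-7272513 (plus strand): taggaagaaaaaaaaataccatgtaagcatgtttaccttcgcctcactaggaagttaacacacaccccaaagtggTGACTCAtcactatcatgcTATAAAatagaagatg
Mmp1a, chr9:7464031-7464140 (plus strand): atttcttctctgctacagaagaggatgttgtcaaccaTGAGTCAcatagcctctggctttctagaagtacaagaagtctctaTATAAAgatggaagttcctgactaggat
Mmp7, chr9:7691980-7692089 (plus strand): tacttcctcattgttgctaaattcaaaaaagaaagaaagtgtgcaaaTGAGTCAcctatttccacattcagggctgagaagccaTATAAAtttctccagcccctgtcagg
Mmp14, chr14:54431488-54431597 (plus strand): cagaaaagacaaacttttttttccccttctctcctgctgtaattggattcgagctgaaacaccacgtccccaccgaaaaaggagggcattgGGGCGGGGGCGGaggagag
Mmp15, chr8:95352186-95352295 (plus strand): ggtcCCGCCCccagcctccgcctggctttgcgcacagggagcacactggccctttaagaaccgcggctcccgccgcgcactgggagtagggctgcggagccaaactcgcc
In Mmp3 the AP-1 letters began 46 bases and the TATA box 7 bases before the annotated start. The distances were 63 and 29 bases in Mmp10, 35 and 16 in Mmp13, 73 and 28 in Mmp1a, and 63 and 26 in Mmp7. In the stretches shown, AP-1 letters stood upstream of a TATA box in the detected Mmp3 and in the 4 genes that were not detected. Mmp7 had a further TATA box 123 bases before this start, outside the stretch and upstream of its AP-1 letters, and a second annotated start of Mmp7 had neither motif in its window. By contrast, the stretches of Mmp14 and Mmp15 held GC boxes alone.

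**Figure D2:**
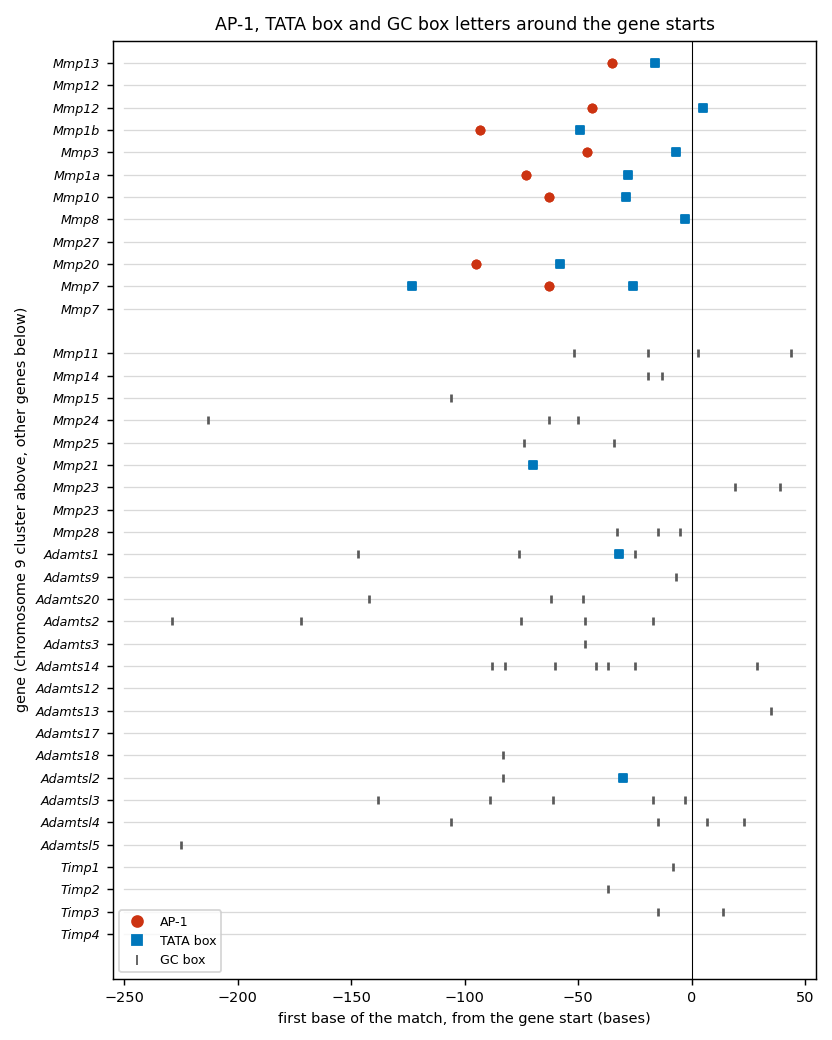
Positions of the AP-1 letters (red circles), TATA box (blue squares) and GC box (grey ticks) along each RefSeq window (x axis, bases from the gene start; y axis, 1 line per window). The 8 cluster genes with AP-1 letters stand in the upper block, which has no GC box, and the lower block has no red circle.

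Between genotypes, 4 of the 28 genes tested were called higher in AR113Q muscle and 7 were called lower, beside 11.2% of all genes tested called higher and 13.1% called lower. The 4 were Adamts4, Adamtsl2, Adamts15 and Mmp14. The 7 were Mmp23, Mmp15, Adamts8, Mmp19, Timp4, Adamts14 and Adamtsl4. The median log2 fold change was -0.19 over the 28 genes and -0.01 over all genes tested. WT and AR113Q values did not overlap in 11 of the 28 genes, the same 11 that were called, beside 49.3% of all genes tested. On the slide that held both genotypes, the 11 differences ran from -2.93 to 4.67, and since the groups do not overlap their signs there are fixed. Of the 11, 6 were well above background on all 7 arrays, 3 called higher (Adamtsl2, Adamts15 and Mmp14) and 3 lower (Timp4, Adamts14 and Adamtsl4). The other 5, Adamts4, Mmp23, Mmp15, Adamts8 and Mmp19, reached the filter within the genotype in which they were high and were below background on some arrays of the other. Their fold changes and p-values are therefore given as a description, with the number of arrays measured, and not as sizes of change. The calls depended on how the background was treated. With normexp correction 1 gene was called higher and 4 lower, and in the authors' normalized values, which hold 25 of the 28 genes, 0 were called higher and 2 lower. The direction of the 11 did not turn under any of the 21 alternatives in which they were tested, though Adamts4 was not measured in the authors' values. Much of this was fixed beforehand. Groups that do not overlap keep their sign with slide fixed or a changed limit, and can hardly turn with an array left out.

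**Figure D3:**
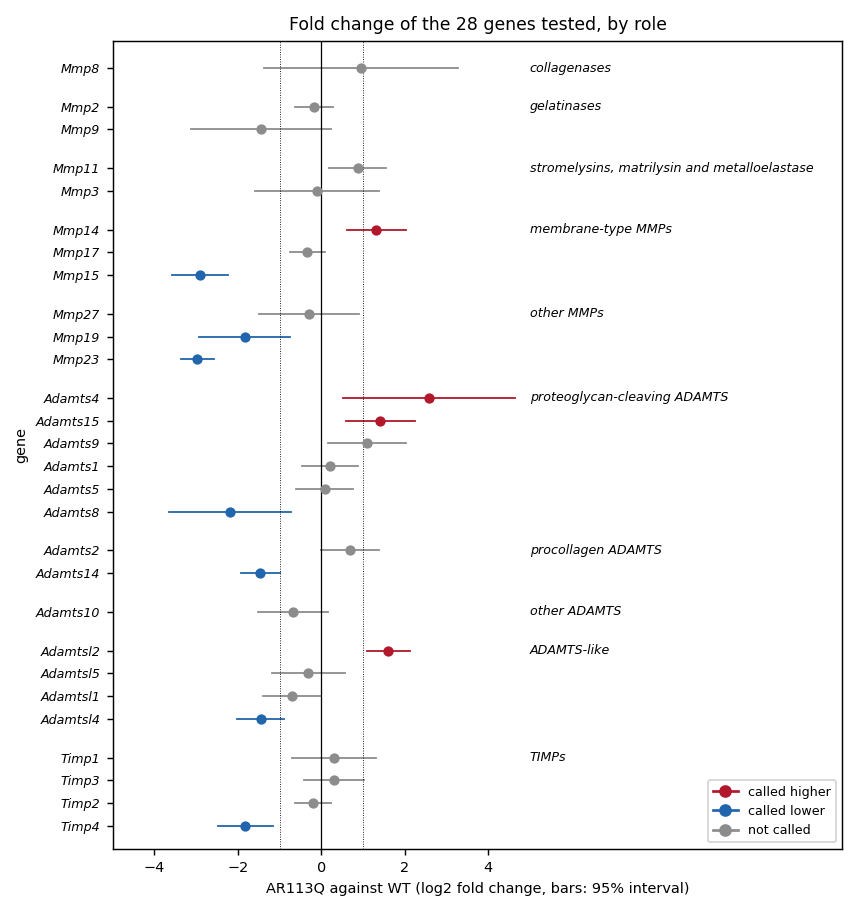
Log2 fold change of AR113Q against WT (x axis) for the 28 genes tested, grouped by role (y axis), with 95% intervals from limma. Red genes were called higher, blue genes lower and grey genes were not called, and dotted lines mark a log2 fold change of 1 and -1. The 4 red points lie between 1.32 and 2.59 and the 7 blue points between -2.97 and -1.45.

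Among the membrane-type MMPs, which sit on the cell surface, 1 gene was called higher, 1 lower and 1 of the 3 tested was not called. Mmp14 (MT1-MMP) activates the proenzyme of Mmp2 and cuts fibrillar collagen. Its log2 signal was 6.50, 5.59, 5.16 and 6.21 in WT replicates 1 to 4 and 7.04, 7.27 and 7.26 in AR113Q replicates 1 to 3. The 3 AR113Q values had an SD of 0.13 and all lay above the highest WT array. The log2 fold change was 1.32 (SE 0.31, adjusted p = 0.0103 from limma), measured on chromosome 14 (55058775 to 55058834). Mmp15 (MT2-MMP) went the other way. Its signal was 7.37, 6.80, 6.86 and 6.82 in WT, and 3.87, 4.72 and 3.56 in AR113Q replicates 1 to 3. All 4 WT arrays were well above background but only AR113Q replicate 2 was, so the lower group lies near the level at which a signal can be told from background (3.09 to 4.30 on the log2 scale, by array). This was a log2 fold change of -2.91 (SE 0.29, adjusted p = 0.000305). Mmp17 (MT4-MMP) differed by -0.33 (SE 0.18, adjusted p = 0.171).

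Mmp23 and Mmp19, grouped with the other MMPs, were called lower. Mmp23 is a small protease that is held in the membrane by its N-terminus and lacks the hemopexin domain. Its log2 signal was 7.47, 7.18, 7.36 and 7.43 in WT replicates 1 to 4 and 4.68, 4.16 and 4.33 in AR113Q replicates 1 to 3. The WT arrays lay close together and far above all AR113Q arrays. The log2 fold change was -2.97 (SE 0.17, adjusted p = 5.54e-05 from limma), from a probe on chromosome 4 between 155025377 and 155025436, and its order against Mmp15 is not resolved within the standard errors. AR113Q replicate 1 was not well above background for it. Mmp19, a widely expressed MMP that cuts basement membrane proteins, was near background in both genotypes, with 4.34, 4.33, 3.46 and 4.96 in WT and 1.50, 3.39 and 2.42 in AR113Q. It was well above background on 3 WT arrays and 1 AR113Q array. Its log2 fold change of -1.84 (SE 0.47, adjusted p = 0.0153) is therefore a description. It was -0.20 with normexp correction and -0.10 in the alternative that shrank it most. Mmp27, the remaining gene of this group to be tested, differed by -0.29 (SE 0.52, adjusted p = 0.677).

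The soluble collagenases, gelatinases and stromelysins had 5 genes tested and 0 called. Mmp2 (gelatinase A), which cuts denatured collagen and basement membrane collagen, was measured on all arrays, at 10.36 to 10.97 in WT and 10.33 to 10.76 in AR113Q, with a log2 fold change of -0.18 (95% interval -0.64 to 0.27). Mmp9 (gelatinase B) ranged over 6.56, 4.64, 3.11 and 5.77 in WT replicates 1 to 4 and 3.17, 4.16 and 3.37 in AR113Q, a difference of -1.45 (SE 0.73, adjusted p = 0.144). The WT arrays alone spanned more than the difference, and without WT replicate 3 it was -2.09 and passed (adjusted p = 0.0149). Mmp8, the neutrophil collagenase, stood at 1.71, 1.72, 1.66 and 5.87 in WT and 2.88, 4.21 and 4.02 in AR113Q. WT replicate 4 was thus above all other arrays, and only it and AR113Q replicates 2 and 3 were well above background. The difference of 0.96 (adjusted p = 0.470) became 2.05 (adjusted p = 0.00449) without WT replicate 4, but then no WT array is above background and the gene would fail the filter, so that value has no measured WT level behind it. The neutrophil markers S100a8, S100a9, Elane and Camp summed to 22.68, 23.09, 20.39 and 33.74 on the log2 scale in WT replicates 1 to 4 and to 29.84, 29.52 and 32.13 in AR113Q replicates 1 to 3, so that WT replicate 4 stood apart here too, with 0 of 4 called and 3 further markers not tested, and their part in the Mmp8 and Mmp9 values was not tested. Mmp3 differed by -0.10 (SE 0.65, adjusted p = 0.917). Mmp11 (stromelysin-3), for which both probes were measured on all arrays, had an adjusted p of 0.0423 but a log2 fold change of 0.87 (SE 0.29), under the limit for a call, and its other probe gave 0.88. Without AR113Q replicate 3 it was 1.20 (adjusted p = 0.00507) and passed.

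In the proteoglycan-cleaving ADAMTS group 6 of 7 genes were tested, 2 were called higher and 1 lower. Adamts15, which cuts versican and aggrecan, was at 7.62, 6.96, 6.55 and 7.70 in WT replicates 1 to 4 and at 8.11, 9.25 and 8.52 in AR113Q replicates 1 to 3. The lowest AR113Q array lay above the highest WT array. Its log2 fold change was 1.42 (SE 0.36, adjusted p = 0.0142 from limma), and its probe lies on chromosome 9 between 30707033 and 30707092. Its neighbor Adamts8, with a probe between 30770384 and 30770443 on the same chromosome, was called lower. Adamts8 stood at 4.77, 4.97, 6.45 and 5.15 in WT and at 2.75, 2.03 and 4.65 in AR113Q, where only replicate 3 was well above background. AR113Q differed from WT by -2.19 (SE 0.63, adjusted p = 0.0242), and the call was lost without WT replicate 3 (adjusted p = 0.0501), without AR113Q replicate 1 (adjusted p = 0.0828) and without AR113Q replicate 2 (adjusted p = 0.0828). It was also lost with no filter on dim probes (adjusted p = 0.0686), normexp (-0.46), the mean spot intensity (-0.39, adjusted p = 0.0708) and the authors' values (-0.24, adjusted p = 0.0774). A second Adamts8 probe was above background on 1 WT array and was not tested.

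Adamts4 (aggrecanase-1) was called higher with the largest standard error of the 11 called genes. Its log2 signal was 4.83, 1.60, 1.58 and 4.90 in WT replicates 1 to 4, where replicates 2 and 3 were not above background, and 6.27, 5.67 and 5.51 in AR113Q replicates 1 to 3. The WT arrays thus fell into 2 above background and 2 far below, and all AR113Q arrays lay above them. The log2 fold change of 2.59 (SE 0.90, adjusted p = 0.0470) failed the threshold when WT replicate 2 or 3 (adjusted p = 0.0946 and 0.0959) or AR113Q replicate 1, 2 or 3 (adjusted p = 0.141, 0.0966 and 0.0773) was left out. The call was also lost with 75th percentile scaling (2.43, adjusted p = 0.0674) and with no filter on dim probes (adjusted p = 0.121). The fold change was 0.55 with normexp correction and 0.52 with the mean spot intensity, below Adamts15 (1.05 and 1.12) and Adamtsl2 (0.97 and 1.04) under both. Adamts9, which cuts aggrecan and versican, differed by 1.10 (SE 0.41, adjusted p = 0.0610) and passed without WT replicate 4 or without AR113Q replicate 1. Adamts1, at 9.83 to 10.77 in WT and 9.88 to 10.78 in AR113Q, differed by 0.21 (95% interval -0.46 to 0.88). Adamts5 (aggrecanase-2), a neighbor of Adamts1 on chromosome 16, differed by 0.08 (95% interval -0.61 to 0.77).

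Of the procollagen ADAMTS, 2 of 3 were tested and 1 fell. Adamts14 removes the N-terminal propeptide of collagen. It was at 7.54, 7.71, 7.25 and 7.52 in WT replicates 1 to 4 and at 6.09, 5.68 and 6.36 in AR113Q replicates 1 to 3. The WT and AR113Q arrays stood clearly apart, and all were above background. They differed by -1.46 on the log2 scale (SE 0.20, adjusted p = 0.00107 from limma), from a probe on chromosome 10 between 60659860 and 60659919. A second Adamts14 probe, further 5′, was above background on 0 arrays. Adamts2, the main procollagen N-proteinase of skin, was measured by 2 probes that differed in their call. The brighter one, on chromosome 11 between 50617472 and 50617531, was at 11.28, 11.23, 10.67 and 11.16 in WT and 12.49, 11.56 and 11.27 in AR113Q, a difference of 0.69 (SE 0.30, adjusted p = 0.0979). The dimmer one, between 50590188 and 50590247, was at 4.84, 4.65, 3.93 and 4.38 in WT and 7.11, 5.94 and 5.47 in AR113Q. That was a difference of 1.72 (SE 0.39, adjusted p = 0.00837 in the fit of every kept probe). Both probes were highest on AR113Q replicate 1, and they lie at different places in the transcript. In the group of other ADAMTS, Adamts10, which binds fibrillin, differed by -0.68 (SE 0.37, adjusted p = 0.166).

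Of the ADAMTS-like proteins, several of which bind fibrillin microfibrils, 4 of 5 were tested, 1 rose and 1 fell. Adamtsl2, known from its gene in the skin, joint and heart disorder geleophysic dysplasia, was at 6.30, 6.35, 6.48 and 6.07 in WT replicates 1 to 4 and at 7.46, 7.94 and 8.34 in AR113Q replicates 1 to 3. The gap between the lowest AR113Q and the highest WT array was wider than the spread of the WT arrays. Adamtsl2 rose by 1.61 on the log2 scale (SE 0.23, adjusted p = 0.00110 from limma), from a probe on chromosome 2 between 26964005 and 26964064. Adamtsl4, known from inherited lens dislocation, was at 9.14, 10.04, 9.43 and 9.38 in WT and at 7.75, 8.01 and 8.37 in AR113Q. Its log2 fold change was -1.45 (SE 0.25, adjusted p = 0.00256), from chromosome 3 between 95480135 and 95480194. Adamtsl1 differed by -0.70 (SE 0.31, adjusted p = 0.0986) and Adamtsl5 by -0.31 (SE 0.38, adjusted p = 0.534).

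The TIMPs, which block the active site of MMPs, were measured on all arrays, and 1 of the 4 was called. Timp4, an inhibitor known from heart, muscle and fat, was at 10.83, 11.34, 11.42 and 11.60 in WT replicates 1 to 4 and at 9.48, 10.01 and 8.95 in AR113Q replicates 1 to 3. The highest AR113Q array lay below the lowest WT array, and the mean was 3.53-fold lower in AR113Q. The log2 fold change was -1.82 (SE 0.28, adjusted p = 0.00173 from limma), from a probe on chromosome 6 between 115196120 and 115196179. Timp2, which also takes part in the activation of Mmp2 by Mmp14, was at 13.62 to 14.13 in WT and 13.57 to 13.99 in AR113Q, a difference of -0.21 (95% interval -0.64 to 0.22). Its other probe gave -0.51 (adjusted p = 0.0562). Timp3, which binds the matrix and also blocks several ADAMTS enzymes, differed by 0.31 (95% interval -0.41 to 1.02), and Timp1 by 0.31 (95% interval -0.71 to 1.32).

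**Figure D4:**
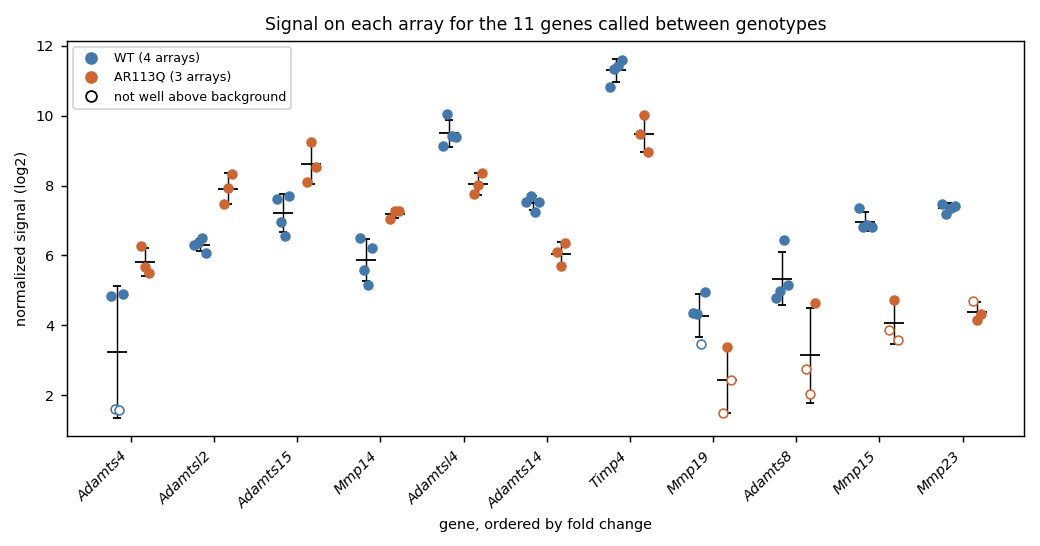
Normalized log2 signal (y axis) of the 11 called genes on each array (x axis, ordered by fold change), WT in blue and AR113Q in orange, with the mean and SD in black. Open circles are arrays not well above background. Timp4, Adamtsl4, Adamts14, Mmp14, Adamts15 and Adamtsl2 have filled circles throughout, and Mmp15, Adamts8 and Mmp19 have mostly open ones in AR113Q.

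The size of most differences depended on the background step. When the mean spot intensity was used with no background subtracted, Mmp23 differed by -1.15 and Mmp15 by -1.14. The authors' normalized values gave -0.70 and -0.68. For Timp4 the same values were -1.64 and -1.57, close to the -1.82 above, and for Adamtsl4 they were -1.26 and -1.11. Genes above background on all 7 arrays shrank as well. Adamts14 was -0.81 with the mean spot intensity and -0.55 in the authors' values, Adamtsl2 was 1.04 and 0.76, Mmp14 was 0.68 and 0.45, and Adamts15 was 1.12 and 0.91. The limit of 0.05 on the adjusted p was met by 10 of the 11 genes with normexp, 9 of 11 with the mean spot intensity and 8 of the 10 measured in the authors' values, so that most calls were lost through the fold change limit. Timp4 and Adamtsl4 were the 2 genes called under all 3 of these treatments as well.

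**Figure D5:**
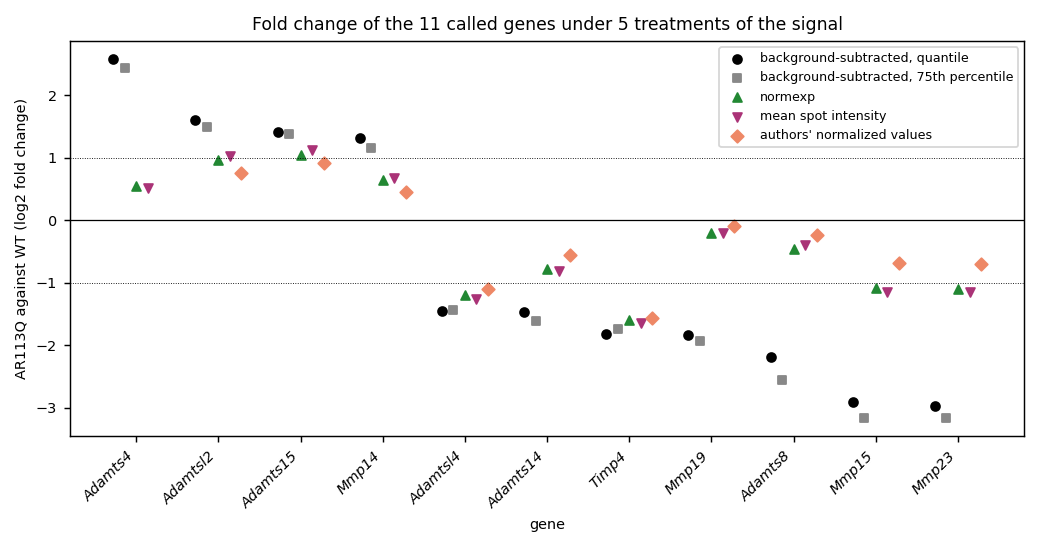
Log2 fold change of AR113Q against WT (y axis) for the 11 called genes (x axis) under 5 treatments of the signal, with dotted lines at 1 and -1. The points of Timp4 lie between -1.82 and -1.57, while those of Mmp15 run from -3.17 to -0.68, and no gene has points on both sides of 0.

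Genes that act on or with these proteases were listed by function, as were the cell type markers below, with earlier results of these arrays known. Of 19 activators, inhibitors and cell surface partners, 13 were tested, 2 were called higher and 4 lower, with a median log2 fold change of -0.68. The shares over all genes tested, 11.2% higher and 13.1% lower, stand beside this count and those of the lists below. Plaur, the receptor that holds urokinase at the cell surface, rose by 2.73 on the log2 scale (adjusted p = 0.000517 from limma), and Furin, which cuts the proenzymes of membrane-type MMPs and ADAMTS, rose by 1.47 (adjusted p = 0.00378). Cd44, a hyaluronan receptor that binds Mmp14, fell by 2.35, and Pcsk6, a proprotein convertase like Furin, fell by 2.31. For Cd44 only 2 AR113Q arrays were well above background, so its value is a description. Serpine2, a serine protease inhibitor, and Reck, a membrane-anchored inhibitor of MMPs, were the other 2 called lower, at -1.35 and -1.10. Reck too was near background, with 2 AR113Q arrays well above it, and its value is a description. Of 14 substrates and binding partners, 11 were tested, 0 were called higher and 8 lower, with a median of -1.66. Col3a1 fell by 4.62 and Col1a1 by 3.27 on the log2 scale, the chains of fibrillar type III and type I collagen. Fbn1 (fibrillin-1), Col1a2, Fn1 (fibronectin), Vcan (versican), Nid1 (nidogen-1) and Vwf were the other 6 called lower, while Col4a1, Lama2 and Comp were not called.

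Some markers of connective tissue cells were called lower and others were not. Of 7 fibroblast markers, of which Col1a1 is also in the substrate list, 5 were called lower (Col1a1, Pi16, Lum, Dpp4 and Mfap5) and 0 higher, and their summed log2 signal was 79.73 to 82.58 over the WT arrays and 63.69 to 71.64 over the AR113Q arrays. Pdgfra and Dcn, markers of the same cells, differed by -0.27 and 0.41 and were not called. All 7 were above background on all arrays. Also called lower were 3 of 4 adipocyte markers (33.97 to 38.86 in WT against 27.51 to 32.63 in AR113Q), 2 of 4 tendon markers (33.89 to 38.93 against 26.81 to 33.04) and 2 of 4 Schwann cell markers (28.30 to 32.74 against 26.30 to 27.55). Of 7 macrophage markers tested, 1 was called higher and 2 lower, and the sums overlapped. None of the 9 muscle fiber markers or 6 endothelial markers was called, and 1 of 5 smooth muscle and pericyte markers, Cspg4, was called lower. The part of these marker changes in the values of Mmp23, Mmp15, Timp4, Adamts14 and the other genes above was not tested. In whole muscle, fewer cells of a type and less RNA per cell cannot be told apart.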

How the data were processed

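RNA of 7 quadriceps samples was hybridized by the authors to single-dye Agilent arrays, read with Feature Extraction 10.7.3.1 per the labels. The deposited scanner intensity is background-subtracted and not normalized between arrays. The deposited normalized table holds log2 values that the authors describe as quantile normalized. Here log2 intensities were quantile normalized over 43020 spots after outlier spots (94 to 151 per array) and control spots were removed, replicate spots were averaged, and probes had to be well above background on 3 or more of the 7 arrays (20991 of 39429). Each gene was read from its brightest kept probe. The comparison of genotypes used limma 3.58.1 (lmFit and eBayes, R 4.3.3). Symbols came from RefSeq accessions of GRCm38.p6 (66 of the 72 probes matched) or the array annotation, and positions are mm9. The procedure was tested on simulated data. The genes and lists were chosen with earlier results of these data known. Each gene of the set is accounted for by role, with values on each array for those called and for those whose probes differ. The alternatives changed the scaling, background correction, filter, choice of probe, outlier spots, variance trend, slide, replicate block and fold limit, and left out each array in turn. The p-values measure the spread between arrays, in which mouse and slide are mixed. Apart from the slide shared by WT replicate 2 and AR113Q replicate 1, each slide held WT alone or AR113Q alone. Genotype and slide cannot be told apart on those slides.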

Additional observations from a re-analysis of the deposited data

Results flagged for a closer look

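The 28 WT groups of 4 arrays were searched for an array far from the other 3, a search that flags about 1 in 20 groups by chance, and 2 were found. For Mmp8, WT replicate 4 had a log2 signal of 5.87, while the next highest WT array was at 1.72. For Mmp15, WT replicate 1 had a log2 signal of 7.37, above the next WT array at 6.86, and so on the side away from AR113Q.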

How the results depend on the processing

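Over 21 alternatives, 0 of the 11 called genes changed sign. For groups that do not overlap, leaving out an array or fixing the slide could hardly have turned it. Of the values of single genes, 503 kept sign and call, 41 lost the call and 12 gained it. Against 4 genes called higher and 7 lower, normexp gave 1 and 4, the mean spot intensity (chosen after seeing the data) 2 and 4, and the authors' values 0 and 2. Slide as a fixed effect leaves 1 mouse per genotype, so only its fold changes are read. The filter on all 7 arrays, which removes 5 of the called genes, gave 4 and 3, with Adamts9 called in addition (adjusted p = 0.0444). Scaling to the 75th percentile gave 3 and 7, and no filter on dim probes 3 and 6. With each array left out, 3 to 6 genes were called higher and 6 to 7 lower, and 9 of the 11 kept their call each time, the exceptions being Adamts4 and Adamts8. Over all genes tested, 1852 higher and 2178 lower became 807 and 944 with normexp, 874 and 1030 with the mean spot intensity and 624 and 741 in the authors' values. The replicate block gave 6 and 7. Whether replicate numbers pair the mice is not known. Deviations of same-numbered arrays correlated at 0.04, -0.02 and 0.16, too few pairs to settle it.

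Sign changes were limited to 6 genes that were not called. Adamts5 (0.08) was -0.10 with 75th percentile scaling, -0.19 as the mean over probes, -0.47 by its other probe, -0.41 with slide fixed, and between -0.10 and 0.33 with an array left out. Mmp3 (-0.10) was 0.17 with slide fixed, 0.47 with the replicate block and between -0.60 and 0.47 with an array left out. Mmp27 (-0.29) was 0.003 with normexp, 0.001 with the mean spot intensity, 0.30 with slide fixed and -0.73 to 0.28 with an array left out. Timp1 (0.31) was -0.25 and Timp3 (0.31) was -0.32 with slide fixed, and with an array left out Timp1 ran from -0.028 to 0.62 and Adamtsl5 (-0.31) from -0.81 to 0.079. The cause was not tested.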
